A study of Mus musculus with 3 samples.

Results

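The Hippo-YAP genes described here are 9 genes chosen by name: Ctgf, Cyr61, Ankrd1, Amotl2, Ajuba, Lats2, Yap1, Wwtr1 and Tead1. They are targets of the pathway together with its regulators and effectors, and not targets alone. All 9 were measured, as 13 RefSeq transcripts of 17910 and 9 genes of 11886. The RNA came from mT3-2D-GFP, a KPC pancreatic cancer line of C57BL/6 origin that carries green fluorescent protein (GFP). The groups were the line in culture in DMEM with fetal bovine serum, GFP-positive cells sorted from tumours of the line in B6.CB17-Prkdcscid/SzJ (SCID) mice, a strain without T or B lymphocytes, and such cells from tumours in C57BL/6 (WT) mice, which have them. Equal RNA amounts from 5 tumours (SCID) or 6 tumours (WT) were pooled into 1 library per group, so all 3 groups are the same line, no spread between tumours was measured and no difference was tested. The sources used here give neither the age of the mice nor the site of the tumours.

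The Hippo pathway is a kinase cascade in which the LATS kinases phosphorylate the coactivators YAP (gene Yap1) and TAZ (gene Wwtr1) and keep them out of the nucleus. In the nucleus YAP and TAZ bind the TEAD transcription factors, TEAD1 among them, and raise the transcription of target genes such as Ctgf, Cyr61, Ankrd1, Amotl2 and Lats2. YAP activity is known to respond to cell shape, density and matrix stiffness, and YAP has a role in pancreatic cancer. These coactivators are controlled largely through their location and turnover, which RNA levels do not measure.

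All values are the authors' deposited fold changes between 2 libraries, with a gene's value the mean over its transcripts. They were taken to be on a log2 scale, which the header does not state, and every fold given here rests on that. Over all transcripts the values ran from -2.49 to 2.77, and whether they were shrunken is unknown. They are differences, not levels, so the genes cannot be ordered by abundance and the depth behind each value is unknown. A gene was called at 2-fold or more, a log2 of 1. Transcripts of 1 gene scattered about their mean. Their pooled SD was 0.33 in SCID minus line, 0.31 in WT minus line and 0.22 in WT minus SCID. It is a spread of transcripts and not of animals, and it is not the error of a gene's value or of a gap between genes. Both comparisons with the line share the line's library, and WT minus SCID equals their difference, so the 3 values of a gene are not independent. In these bulk samples fewer cells of a type and less RNA per cell cannot be told apart.

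The named targets stood on both sides of the cultured line. Ctgf and Cyr61 were higher in the tumour-sorted pools, Ankrd1 and Amotl2 were lower, and Ajuba and Lats2 lay closer to the line. Ctgf was the 1 member of 9 past 2-fold in SCID minus line, where 6.28% of all measured genes were past it, and the 1 of 9 in WT minus line, where 6.15% were. The median of the 9 members was -0.10 in SCID minus line and -0.18 in WT minus line, against -0.02 and -0.01 over all genes. Members below 0 numbered 5 of 9 in each comparison, beside 51.7% and 51.4% of all genes. At 1.5-fold, Ctgf, Cyr61 and Amotl2 were past the threshold in SCID minus line (3 of 9, beside 20.5% of all genes) and Ctgf, Ankrd1 and Amotl2 in WT minus line (3 of 9, beside 19.6%). The counts at 2-fold and below 0 lie near those of the table as a whole.

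Ctgf encodes connective tissue growth factor, a secreted matricellular protein of the CCN family, named Ccn2 in current RefSeq. It stood at 1.21 in SCID minus line (2.32-fold) and at 1.01 in WT minus line (2.02-fold), just inside the 2-fold threshold. Both tumour pools were therefore above the line, and 97.9% of measured genes had a lower value than Ctgf in the SCID pool and 96.0% in the WT pool. Its transcript NM_010217 lies on chromosome 10 from 24595442 to 24598682 on the forward strand.

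Cyr61, now Ccn1, encodes a second secreted CCN protein that binds integrins. It stood at 0.66 in SCID minus line (1.57-fold) and 0.42 in WT minus line (1.34-fold). Cyr61 was thus the next highest member in both pools, below Ctgf by 0.56 and 0.59, gaps wider than the pooled SD between transcripts. NM_010516 lies on chromosome 3 from 145646971 to 145649985 on the reverse strand. No value was available for the other CCN genes listed, Nov, Wisp1, Wisp2 and Wisp3.

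Ankrd1, an ankyrin-repeat protein known from cardiac muscle and widely used as a readout of YAP activity, was on the other side of the line. It stood at -0.52 in SCID minus line (1.43-fold lower) and -0.62 in WT minus line (1.53-fold lower). NM_013468 lies on chromosome 19 from 36111965 to 36119844 on the reverse strand. Ankrd1 and Ctgf, both used as YAP readouts, therefore differed from the line in opposite directions in both pools.

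Amotl2 encodes angiomotin-like 2, which binds YAP at junctions and restrains it, and is itself a YAP target. It was the lowest member, at -0.90 in SCID minus line (1.86-fold lower) and -0.92 in WT minus line (1.89-fold lower). Only 3.43% and 2.63% of measured genes were lower. With the dependence on GC content and transcript length taken out, Amotl2 stood at -1.03 and -1.11, past 2-fold in both. NM_019764 lies on chromosome 9 from 102717804 to 102733417 on the forward strand.

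Lats2, a LATS kinase and a YAP target in feedback, stood at -0.15 in SCID minus line and -0.20 in WT minus line. Ajuba encodes a LIM protein that binds LATS kinases and restrains them. It stood at -0.30 in both. Both genes were within the pooled SD between transcripts. On the reverse strand of chromosome 14, NM_015771 of Lats2 spans 57689662 to 57746123 and NM_010590 of Ajuba spans 54567469 to 54577661.

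**Figure D1:**
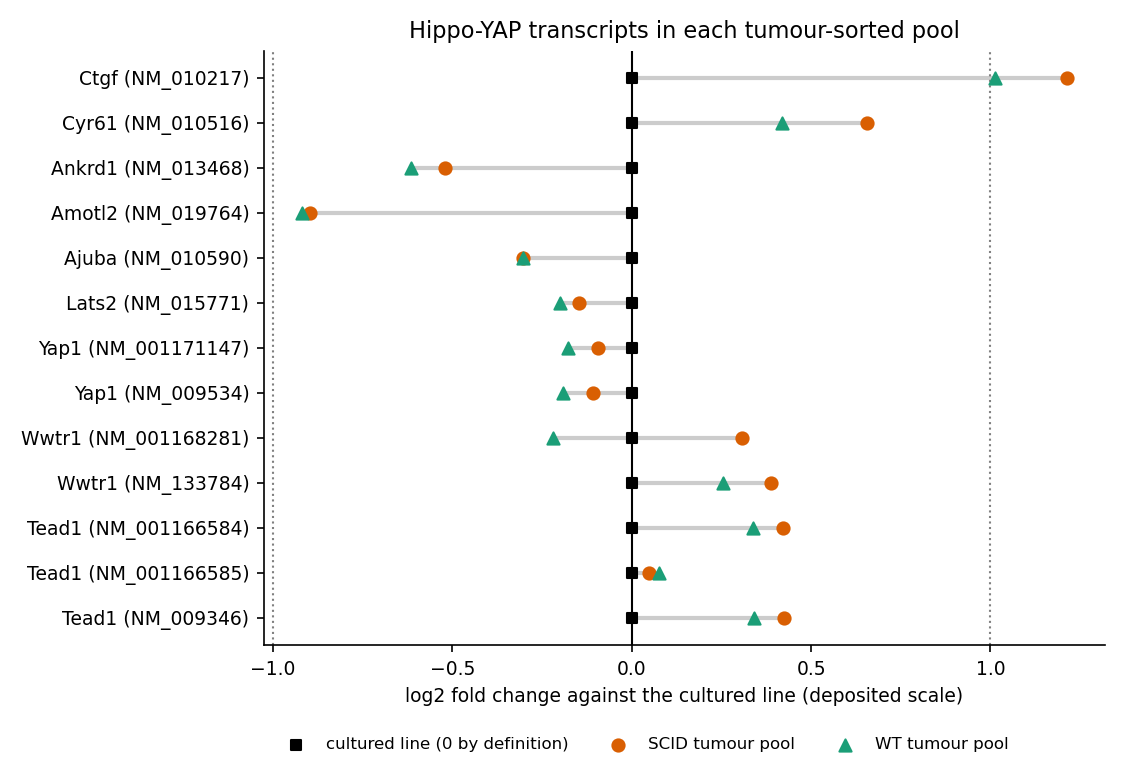
Log2 fold change against the cultured line for each of the 13 member transcripts (horizontal axis), with the line as squares at 0, the SCID pool as circles and the WT pool as triangles, 1 library each; dotted lines mark 2-fold. Ctgf lies at 1.21 and 1.01, Amotl2 at -0.90 and -0.92, and the Wwtr1 transcript NM_001168281 has its 2 pools on opposite sides of 0.

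Ctgf and Cyr61 are also expressed by fibroblasts and endothelial cells, so markers of other cells and of handling are given beside them; most with a value were above the line, and the mesothelial markers were below it. Of 11 fibroblast markers 1 had a value, Col1a1 (type I collagen), at 2.61 in SCID minus line and 1.90 in WT minus line. Of 10 endothelial markers 3 had one, Kdr, Flt1 and Eng, all above 0 with a median of 1.12 and 1.09 and Flt1, a VEGF receptor, highest at 1.63 and 1.66. None of the 5 pericyte markers had a value. Of 12 macrophage markers 4 had a value, with medians of 0.70 and 1.73, Apoe highest at 1.02 and 2.77 and Mrc1 lowest at -0.06 and 0.77. Of 7 T cell markers 2 had one, Tcf7 at 0.36 and 0.35 and Foxp3 at 0.10 and 0.09. Cd3d, Cd3e, Cd3g, Cd4 and Cd8a had none, so these 2 are not read as a measure of T cells. Of 5 mesothelial markers 3 had a value, all below 0, with Upk1b lowest at -1.56 and -1.50. These 3 were thus higher in the cultured line than in the pools and are not read as a measure of mesothelial cells. All 14 immediate-early and heat shock genes, known to respond to tissue dissociation, were above 0 in both comparisons, 10 of them past 2-fold, with medians of 1.67 and 1.74. Of all genes 3.65% were 2-fold higher in SCID minus line and 4.12% in WT minus line, and 51.7% and 51.4% were below 0. Atf3 led at 2.22 in the SCID pool and Hspa1a at 2.04 in the WT pool. The part of these cells, and of sorting, in the values of Ctgf and Cyr61 was not tested. Of the 7 epithelial markers all had a value, with medians of -0.36 and -0.21. In both comparisons 5 of the 7 were below 0, beside 51.7% and 51.4% of all genes. The keratins Krt7 and Krt19 were lowest, Krt7 at -1.18 and -0.99 and Krt19 at -1.01 and -0.95, while Epcam was at 1.25 and 1.59 and Cldn4 at 1.01 and 1.26. The summed level of a marker list needs expression levels and is not given.

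The coactivators and their TEAD partner were all within 1.5-fold of the line. Yap1 stood at -0.10 in SCID minus line and -0.18 in WT minus line. Wwtr1 stood at 0.35 and 0.02, and Tead1 at 0.30 and 0.25. Of these only Wwtr1 in SCID minus line lay farther from 0 than the pooled SD between transcripts. In the order of values these 3 genes lay between Cyr61 and Ankrd1 in both comparisons, together with Lats2 and Ajuba. In SCID minus line the gap from Tead1 to Yap1, 0.40, was wider than the pooled SD between transcripts. In WT minus line no gap from Cyr61 down was wider than it.

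Yap1 had 2 transcripts with nearly the same values. NM_001171147 stood at -0.09 in SCID minus line and -0.18 in WT minus line, and NM_009534 at -0.11 and -0.19. NM_001171147 holds a coding exon of 48 bases (16 codons), exon 6, at chr9:7950492-7950539 in GENCODE on GRCm38, that NM_009534 lacks. In GENCODE exon 1 also differs in length, with 482 bases in NM_001171147 and 474 in NM_009534. Exon 6 is shown as the coding difference between these transcripts, and it lies on the reverse strand.
Yap1 exon 6: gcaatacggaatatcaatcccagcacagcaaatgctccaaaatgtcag
Of the windows of 75 bases, the read length, in NM_001171147, 96.9% also occur in NM_009534, and 98.3% the other way. Most reads therefore cannot tell the transcripts apart, and how the authors assigned them is not given in the sources used here. Both lie on chromosome 9 from 7932001 to 8004596 on the reverse strand.

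Tead1 had 3 transcripts, of which 2 stood together. NM_001166584 stood at 0.42 in SCID minus line and 0.34 in WT minus line, and NM_009346 also at 0.42 and 0.34. NM_001166585 was closer to the line, at 0.05 and 0.08. The first 2 lie on chromosome 7 from 112679320 to 112906805 on the forward strand, and NM_001166585 starts further downstream, at 112759384. It also lacks a coding exon of 12 bases at chr7:112856053-112856064 that both others hold, and NM_001166584 alone holds a coding exon of 63 bases at chr7:112841888-112841950 (GENCODE, GRCm38, forward strand). They are shown as the coding differences between the Tead1 transcripts.
Tead1 exon of 12 bases: gtaacaagcatg
Tead1 exon of 63 bases: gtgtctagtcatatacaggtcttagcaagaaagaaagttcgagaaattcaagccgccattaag
The transcript without either exon and with the later start was thus the one nearest 0. The transcripts also differ outside the coding sequence. In GENCODE NM_009346 has 3047 bases, against 9964 in NM_001166584 and 9480 in NM_001166585. Between 98.4% and 99.7% of the 75-base windows of each Tead1 transcript occur in another of them.

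Wwtr1 had 2 transcripts that parted in the WT pool. NM_133784 stood at 0.39 in SCID minus line and 0.25 in WT minus line. NM_001168281 stood at 0.31 in SCID minus line and -0.22 in WT minus line, so its pools lay on opposite sides of the line. In GENCODE NM_001168281 begins translation in exon 1, with 167 coding bases at chr3:57575714-57575880, while the coding sequence of NM_133784 begins in exon 2. Part of that stretch also lies in exon 1 of NM_133784, from 57575601 to 57575828, where it is not coding. The starts lie 34 bases apart in the deposited table, at 57575910 and 57575876 on the reverse strand of chromosome 3, and both end at 57455644. Of the 75-base windows of NM_001168281, 96.5% also occur in NM_133784, and 93.1% the other way, so the difference between them rests on a small part of each RNA.

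Among 3598 genes with 2 or more transcripts, the median range between the transcripts of a gene was 0.31 in SCID minus line, 0.28 in WT minus line and 0.22 in WT minus SCID. Wwtr1 had a range of 0.08, 0.47 and 0.39 in the same order, above that of 72.8% of these genes in WT minus SCID. Tead1 had 0.38, 0.26 and 0.11. Yap1 had 0.01, 0.01 and 0.002, a smaller range than most genes. The Wwtr1 transcripts therefore parted less than those of the median gene in SCID minus line, where 18.5% of genes had a smaller range, and more in the comparisons that hold the WT pool, though there within the range many genes show.

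**Figure D2:**
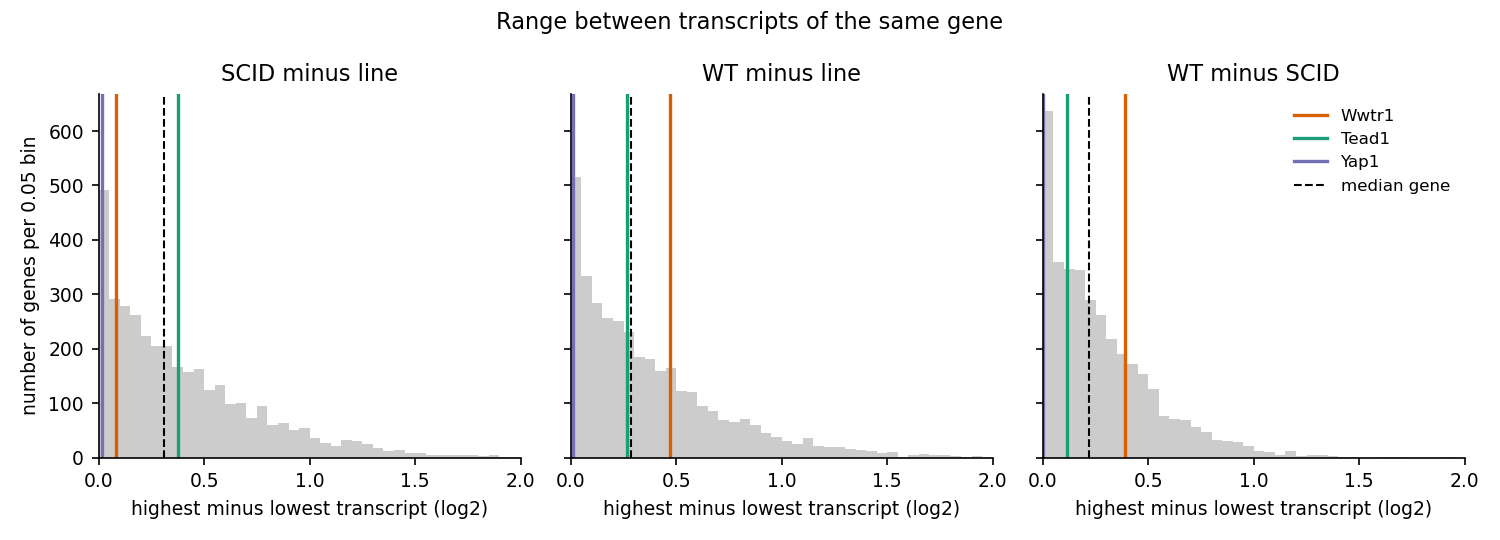
Highest minus lowest transcript value of a gene (horizontal axis, log2) for 3598 genes with 2 or more transcripts, as gene counts per bin (vertical axis), in each comparison, with Wwtr1, Tead1 and Yap1 as coloured lines and the median gene dashed. Wwtr1 lies left of the median in SCID minus line (0.08) and right of it in the other comparisons (0.47 and 0.39).

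The WT and SCID pools differed little in these genes, and every gene mean was lower in the WT pool. None of the 9 members was past 2-fold in WT minus SCID, where 0.32% of all measured genes were, or past 1.5-fold, where 1.28% were. All 9 gene values were below 0, beside 48.5% of all genes, and 12 of the 13 transcripts were. The median over members was -0.08, against 0.004 over all genes. Wwtr1 was lowest at -0.33 (1.26-fold lower in WT), followed by Cyr61 at -0.24 and Ctgf at -0.20. Wwtr1 and Cyr61 were the 2 members farther from 0 than the pooled SD between transcripts, and the other 7 were within it. The share of all genes beyond that SD was not computed. Only 1.34% of measured genes were lower than Wwtr1, 3.74% lower than Cyr61 and 5.86% lower than Ctgf.

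The remaining members were nearer 0 in WT minus SCID. Ankrd1 stood at -0.10, Yap1 at -0.08, Lats2 at -0.05, Tead1 at -0.05, Amotl2 at -0.02 and Ajuba at -0.001. The value of Wwtr1 came mostly from NM_001168281 at -0.53, with NM_133784 at -0.14. The 1 transcript above 0 was NM_001166585 of Tead1, at 0.03. Several of these differences are very small, and with 1 library per group their size against the spread between tumours is unknown.

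Other markers also differed between these pools. All 4 of the 12 macrophage markers with a value, Apoe, Cd68, Mrc1 and Cd14, were higher in WT, from 0.80 to 1.75. Col1a1 was at -0.71, the 3 endothelial markers ranged from -0.19 to 0.29, and 10 of 14 immediate-early and heat shock genes were below 0 with a median of -0.10. The 2 T cell markers with a value, Foxp3 and Tcf7, were both at -0.01. The 7 epithelial markers were all above 0, from 0.05 to 0.34. Of all genes 48.5% were below 0 in this comparison. The part of a different share of host cells in the lower values of the members was not tested.

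**Figure D3:**
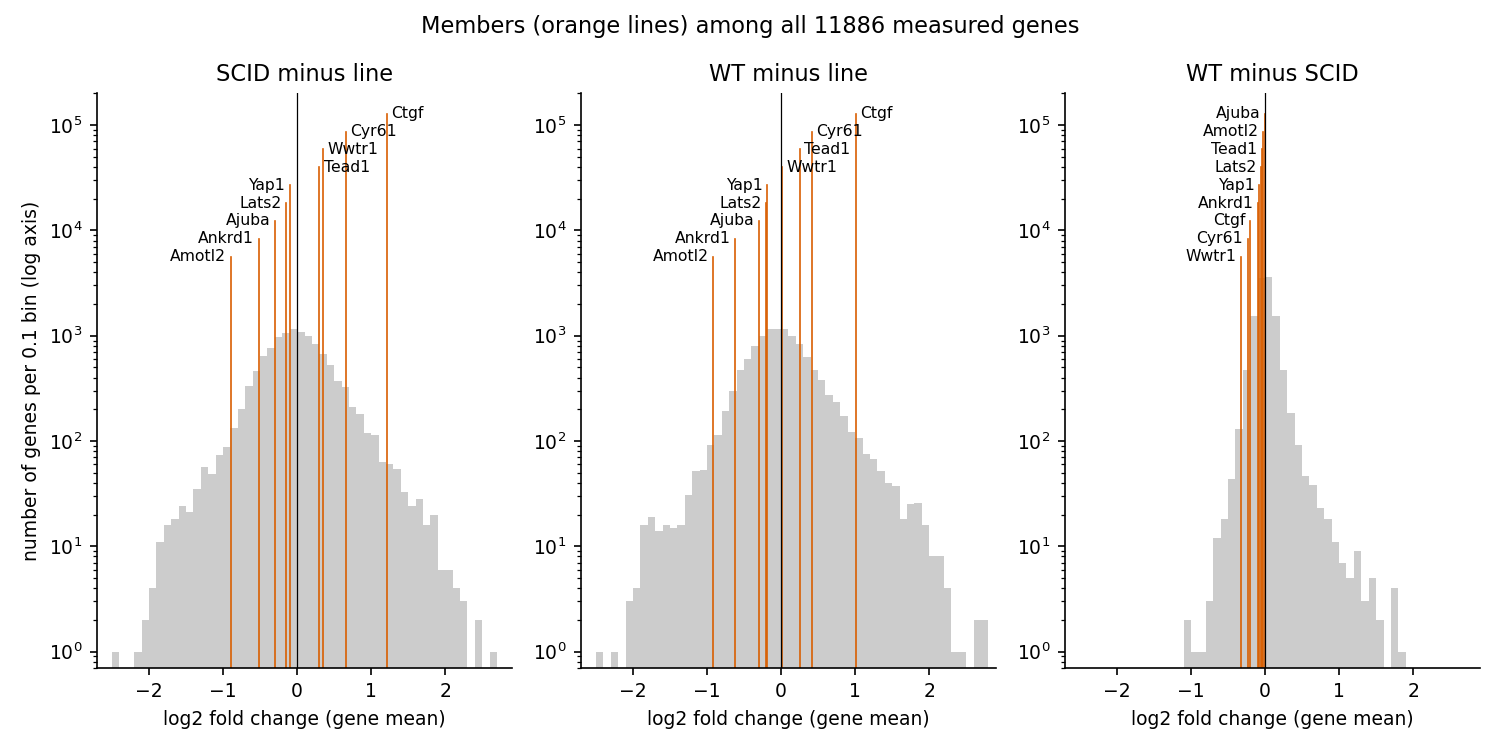
Number of genes per bin of 0.1 (vertical axis, log scale) by log2 fold change (horizontal axis) over 11886 genes in each comparison, with the 9 members as labelled orange lines. Members spread from -0.90 to 1.21 in SCID minus line and from -0.92 to 1.01 in WT minus line, and lie between -0.33 and -0.001 in WT minus SCID.

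The rest of the Hippo pathway was described through lists, of 79 genes, of which 64 had a value. In SCID minus line 3 were 2-fold higher and 1 was 2-fold lower, in WT minus line again 3 and 1, and in WT minus SCID none was. In each the share was close to that of all genes given above. The median of the 64 was 0.03, -0.002 and -0.004 in that order. In WT minus SCID 33 of the 64 were below 0 (51.6%).

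Upstream of LATS, 18 of 20 kinases and adaptors had a value and 1 was past 2-fold. This was Wwc1, the gene of KIBRA, a scaffold that activates LATS, at -1.41 in SCID minus line (2.66-fold lower) and -1.28 in WT minus line (2.43-fold lower). The MST kinases Stk3 and Stk4 stood at 0.11 and -0.31 in SCID minus line and at 0.07 and -0.13 in WT minus line. Lats1, the other LATS kinase, was at -0.06 and -0.12, and Nf2, the gene of merlin, at -0.33 and -0.23. In WT minus SCID the farthest from 0 were Taok3, a kinase, at 0.48 and Frmd6, a FERM protein, at -0.24.

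Of 20 polarity, junction and LIM genes 17 had a value and none was past 2-fold in the 3 comparisons. The farthest from 0 were Crb3, an apical polarity protein, at -0.75 in SCID minus line and -0.53 in WT minus line, and Tjp1, the gene of the junction protein ZO-1, at -0.67 and -0.72. The angiomotins related to Amotl2 lay on the other side of the line. Amotl1 was at 0.52 and 0.45 and Amot at 0.23 and 0.24. In WT minus SCID Mpp5, a polarity scaffold, was lowest at -0.24 and Crb3 highest at 0.22.

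Of 7 further TEAD and VGLL factors 4 had a value. Tead4 stood at -0.99 in SCID minus line, just under 2-fold lower, and at -0.79 in WT minus line. Tead3 stood at 0.36 and 0.31, close to Tead1. Vgll3, a TEAD cofactor, was at -0.25 in SCID minus line, -0.67 in WT minus line and -0.42 in WT minus SCID, and Vgll4, which competes with YAP for TEAD, was at 0.07, 0.26 and 0.19. The 11 genes of YAP retention and turnover were all within 2-fold. Among them Sfn, the epithelial 14-3-3 sigma gene, was highest at 0.63 and 0.81, Csnk1e stood at 0.46 in SCID minus line, and Ywhae was lowest at -0.34 in SCID minus line and -0.38 in WT minus line. In WT minus SCID the farthest were Sfn at 0.18 and Ywhaq at -0.16.

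Of 17 wider YAP and TAZ targets, 14 had a value and 3 were 2-fold higher in each pool than in the line, where 3.65% of all genes were 2-fold higher in SCID minus line and 4.12% in WT minus line. Gadd45a, a growth arrest and DNA damage gene, was at 1.78 in SCID minus line (3.44-fold) and 1.54 in WT minus line (2.92-fold). Igfbp3, an IGF-binding protein, was at 1.32 and 1.10, and Nt5e, the gene of the ectoenzyme CD73, at 1.23 and 1.40. The list's medians were 0.11 and 0.04, and 6 of 14 and 7 of 14 genes were below 0. Dock5, a guanine nucleotide exchange factor, was lowest at -0.62 and -0.57, and Axl, a receptor tyrosine kinase, was at 0.11 and 0.10. In WT minus SCID 7 of 14 were below 0 with a median of 0.02, and the farthest were Gadd45a at -0.24 and Asap1 at -0.23. These targets thus lay on both sides of the line, like the 9 members.

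**Figure D4:**
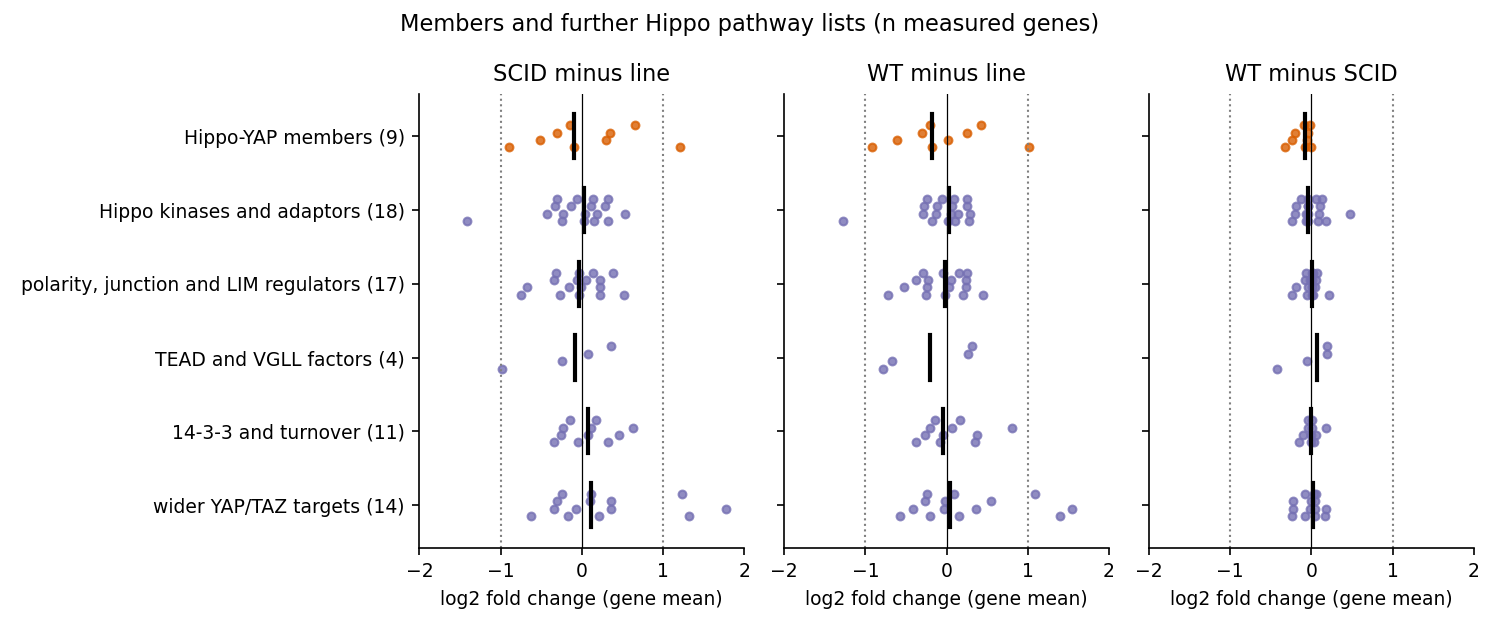
Log2 fold change of each measured gene (points; horizontal axis) in the members (orange) and in 5 further Hippo pathway lists (purple), with the number of measured genes after each name, the list median as a black bar and 2-fold as dotted lines. Wwc1 at -1.41 and -1.28 and 3 wider targets between 1.10 and 1.78 lie outside the dotted lines in the comparisons with the line, and no point does in WT minus SCID.

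Genes with the most similar pair of values were found by distance in the plane of SCID minus line and WT minus line, which holds only 2 values per gene. Genes with Gm or Rik symbols were left out, also from the counts of genes within 0.1. Nearest to Ctgf were Gpr21 at 1.22 and 1.00 (distance 0.02) and Pmaip1, a p53 target that promotes apoptosis, at 1.23 and 1.02 (0.02), and 26 genes lay within 0.1 of Ctgf. Nearest to Cyr61 were Slc12a2, an ion cotransporter, at 0.66 and 0.41 and Mroh3 at 0.67 and 0.41, among 98 genes within 0.1. Nearest to Amotl2 were Hirip3 at -0.90 and -0.92 and Dkc1, the dyskerin gene, at -0.90 and -0.90, among 64. Nearest to Ankrd1 were B4galnt4 at -0.52 and -0.62 and Mrpl19, a mitochondrial ribosomal protein, at -0.51 and -0.61, among 249. Nearest to Wwtr1 were Hcn3 at 0.35 and 0.04 and Zfp975 at 0.37 and 0.03, among 60. Ajuba, Lats2, Yap1 and Tead1 lay in denser parts of the plane, with 826, 935, 835 and 603 genes within 0.1. Their nearest were Pprc1 and Mri1 for Ajuba, Cars and Ttl for Lats2, Pdk3 and Hsph1 for Yap1, and Ubl5 and Sdf2 for Tead1.

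The members were chosen by name as genes of the Hippo-YAP pathway, several of them known TEAD targets, so the TEAD core in their promoters is a description and not independent of that choice. RefSeq promoters on GRCm38.p6, 250 bases before to 50 after a gene's start, were found for 7 of the 9 members; Ctgf and Tead1 had no entry in the table. They were searched on both strands for GGAATG, the core recognised by TEAD factors. All 7 genes held it, in 8 of 9 promoters, whereas 14.7% of 32851 promoters did, and 14.1% of 9487 measured genes with a promoter. The 9 positions are shown because members that were higher than the line (Cyr61) and lower (Amotl2, Ankrd1) carry the same letters. Each line runs 5′ to 3′ on the strand that reads GGAATG, with that core in capitals and 10 bases on either side.
Cyr61: aaacatctcaGGAATGttggttggcg
Ankrd1, distal: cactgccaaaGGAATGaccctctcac
Ankrd1, proximal: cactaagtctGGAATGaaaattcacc
Amotl2: tgctatgccaGGAATGtgagagtttc
Ajuba, distal: ggggcactgtGGAATGtatccatcaa
Ajuba, proximal: gtttacagttGGAATGcgcggagggg
Lats2: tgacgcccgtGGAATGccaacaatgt
Yap1: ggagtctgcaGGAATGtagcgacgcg
Wwtr1: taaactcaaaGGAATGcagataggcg
The match lies at chr3:145650083-145650088 in Cyr61, chr19:36120049-36120054 and chr19:36119962-36119967 in Ankrd1, chr9:102717739-102717744 in Amotl2, chr14:54577842-54577847 and chr14:54577820-54577825 in Ajuba, chr14:57746114-57746119 in Lats2, chr9:8004732-8004737 in Yap1 and chr3:57576041-57576046 in Wwtr1. Relative to the RefSeq start, the first base of the match is at -103 in Cyr61, -65 in Amotl2 and -141 in Yap1. In Ankrd1 it is at -210 and -123, and in Ajuba at -186 and -164. The Lats2 match begins 4 bases after the start, in exon 1. GENCODE starts its transcripts of Ankrd1 and Amotl2 further upstream, so that their matches lie in exon 1 there, while those of Cyr61, Ajuba, Yap1 and Wwtr1 are upstream of the transcript in both annotations. A match of 6 letters is a description of the sequence and not a measured binding site.

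**Figure D5:**
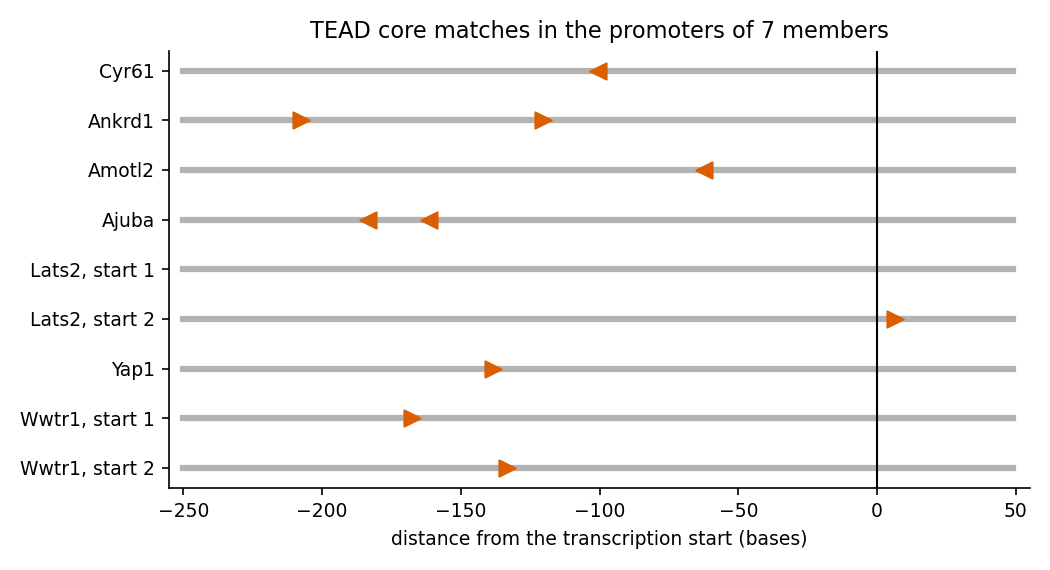
Positions of GGAATG (orange; right-pointing on the gene's strand, left-pointing on the other) in the 9 RefSeq promoters of 7 members, by distance from the start in bases. All but 1 of the promoters, the first of Lats2, hold a match, and Ankrd1 and Ajuba hold 2 each.

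The promoters of Cyr61 (0.66 and 0.42 against the line) and of Amotl2 (-0.90 and -0.92) are given whole, as the member with a promoter that was highest and the one that was lowest. Capitals mark the TEAD core, which reads CATTCC on the gene's strand in both. Cyr61 is at chr3:145649936-145650235 on the reverse strand and Amotl2 at chr9:102717554-102717853 on the forward strand, GRCm38.p6, 5′ to 3′.
Cyr61: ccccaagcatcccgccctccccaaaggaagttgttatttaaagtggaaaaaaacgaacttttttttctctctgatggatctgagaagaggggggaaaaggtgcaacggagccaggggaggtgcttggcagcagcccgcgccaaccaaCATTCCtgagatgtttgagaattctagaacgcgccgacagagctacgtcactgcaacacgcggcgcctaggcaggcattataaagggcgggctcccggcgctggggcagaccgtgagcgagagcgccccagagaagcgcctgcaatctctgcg
Amotl2: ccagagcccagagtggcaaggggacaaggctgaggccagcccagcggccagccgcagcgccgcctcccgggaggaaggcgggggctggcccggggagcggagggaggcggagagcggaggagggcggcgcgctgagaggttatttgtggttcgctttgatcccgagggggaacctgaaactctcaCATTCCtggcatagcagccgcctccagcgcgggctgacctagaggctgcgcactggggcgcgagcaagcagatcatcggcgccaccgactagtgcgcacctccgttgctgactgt
The AP-1 motif TGANTCA was in 0 of the 9 promoters of members and in 7.81% of all promoters, and the CArG box of SRF, which also regulates Ctgf and Cyr61, was in 0 of 9 and in 1.63%. A looser form, with any bases between CC and GG at the spacing of the CArG box, was in 8 of 9 and in 73.3%. Among the further lists, GGAATG was in 3 of 9 wider targets with a promoter in the table, 3 of 16 kinases and adaptors, 3 of 12 polarity, junction and LIM genes, 0 of 7 retention and turnover genes and 3 of 3 TEAD and VGLL factors. The 3 TEAD and VGLL factors thus held it as the 7 members did.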

How the data were processed

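RNA was measured in 3 poly(A) RNA-seq libraries, 1 per group, with paired reads of 75 bases and a mean depth of 40000000 reads per sample per the labels. The authors deposited fold changes, read here as log2, for 17910 transcripts. The header names no log base; log2 was assumed because DESeq2 1.20.0 appears in the submitters' processing notes, next to BWA, Partek, R 3.5.1 and mm9, none with a stated role. The coordinates nevertheless match GRCm38, and ends are the deposited stop minus 1. Shrinkage and row filters are unknown here. WT minus SCID is the last deposited column with its sign reversed, since that column is SCID minus line less WT minus line (tolerance 1e-12).

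Transcript values were averaged per gene with pandas 2.3.3 on Python 3.11.15. With 1 library per group no test was made, no p-value is given, and intervals would need counts. Alternatives were the median or farthest transcript, coding transcripts, centring, a quadratic fit on GC content and length subtracted (GENCODE vM21 sequences for 93.2% of transcripts, checked on simulated data), a 1.5-fold threshold and, added later, each transcript counted. The members and lists were chosen with earlier results of these data known. Named genes are all members, list genes past 2-fold or else the 2 farthest from 0, the farthest marker of each other list, and the 2 nearest genes by distance. Others named, such as Stk3, Stk4, Lats1, Nf2, Amot, Amotl1, Dock5, Axl and further markers, were added after their values were seen. The planned protein comparison was not run.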

Additional observations from a re-analysis of the deposited data

Results flagged for a closer look

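The Wwtr1 transcript NM_001168281 stood at 0.31 in SCID minus line and at -0.22 in WT minus line, on opposite sides of the cultured line, and the difference was not tested. The same held for 5 of the 64 pathway genes and for 1 marker of other cells. The share of all genes with such values was not computed, so these counts are not read as a result about the pathway. Taok3 was at -0.427 and 0.052, Ywhaq at 0.079 and -0.077, Asap1 at 0.213 and -0.018, Mob1b at 0.146 and -0.053, and Limd1 at -0.0036 and 0.035, in the same order and also not tested. The macrophage marker Mrc1 was at -0.056 and 0.769. Taok3, Ywhaq and Asap1 fall under the rule for named genes only in WT minus SCID, and Mob1b, Limd1 and Mrc1 in no comparison. All of them were chosen here after their values were seen. Each is 1 library against 1 library.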

How the results depend on the processing

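No paired analysis was possible because each group had 1 library. Of 207 values recomputed under the alternatives, 6 moved and 1 changed sign. The sign change was in the members' median in SCID minus line, from -0.10 to 0.05 with each transcript counted. Many of the 207 could not move. All 13 member transcripts are coding, so the alternative of coding transcripts repeats every member's value. The median and the farthest transcript repeat it for the 6 members with 1 transcript. No value past 2-fold changed sign. With the GC and length fit subtracted, members past 2-fold numbered 2 in SCID minus line and 2 in WT minus line, since Amotl2 joined Ctgf, beside 6.16% and 6.04% of all genes under the same fit; the fit explained 4.59% and 6.04% of the variance, and 7.02% in WT minus SCID. At 1.5-fold the members past the threshold numbered 3 in SCID minus line and 3 in WT minus line (20.5% and 19.6% of all genes) and the pathway genes 9 and 8. In WT minus SCID 0 members were past 1.5-fold (1.28% of all genes), and all 9 members were below 0 under the main setting and the 5 alternatives run on gene values. In that comparison centring lowered every value by 0.004. For the 6 members with 1 transcript, only the GC and length fit could therefore have brought a value above 0. The value of Wwtr1 in WT minus line was 0.25 with its farthest transcript, against 0.02. Values that shifted by less than the pooled transcript SD were counted as not moved, and so were counts that changed by a ratio of at most 1.5. Pseudocounts and filters on low values need counts or levels and were not run. The number of reads behind each value is unknown, so no counting error can be given for a value.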

Other observations

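Across all measured genes with a RefSeq promoter, 1342 held GGAATG and 8145 did not. Their medians were -0.0002 and -0.03 in SCID minus line, 0.007 and -0.02 in WT minus line, and 0.005 and 0.005 in WT minus SCID. The share of genes below 0 in WT minus SCID was 48.5% with the motif and 48.3% without it. Genes that hold these letters are not a set of TEAD targets. The part of TEAD factors in the members' lower values in the WT pool was not tested.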
